A study of Homo sapiens with 5 samples.

Results

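SLC25A24 and EEIG2 are neighbouring genes on the short arm of chromosome 1, in band 1p13, and both had lower values in CP70 clones that overexpress DDB2 than in clones with the empty vector. The region described here was chosen because of these 2 falls, so the values of SLC25A24 and EEIG2 in this comparison are given as a description. The other 8 genes, VAV3 on one side and HENMT1, PRPF38B, STXBP3, AKNAD1, GPSM2, CLCC1 and WDR47 on the other, were chosen by position, to see whether the falls extend to the neighbours. These are 10 of the 22465 genes with a probe set of their own on the array, and 7 of the 10 passed the filter on low values, as did 15396 genes in all. CP70 is a cisplatin-resistant subline of the human ovarian cancer cell line A2780, and all clones derive from it. Of the 5 clones, 2 carry the empty vector and are called vector clones 1 and 3 after their titles, although the source name of the latter gives it as clone 2. The other 3, called DDB2 clones 1, 2 and 3, were stably transfected with a plasmid that expresses DDB2, the damaged-DNA binding protein. Each clone gave total RNA for 1 GeneChip Human Transcriptome Array, so each group is a set of single clones and its spread includes whatever differs from clone to clone.

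The genes of this interval have unrelated roles. SLC25A24 encodes a carrier of the inner mitochondrial membrane that exchanges ATP-Mg for phosphate and is switched on by calcium. EEIG2, formerly FAM102B, is a paralog of EEIG1, an estrogen-induced gene known in mouse for a part in osteoclast formation. Genes that lie side by side can share regulatory elements, a chromatin domain or a chromosomal segment, and a difference that covers a whole segment would be seen in the genes around it as well. DDB2 recognizes ultraviolet lesions in DNA as part of a ubiquitin ligase, and it has also been described as a transcriptional regulator that binds near gene starts.

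The sequences around the starts of the 2 genes that fell are shown because DDB2 is described as binding promoter regions. Each runs 5′ to 3′ on the strand of the gene over 300 bases, 250 before and 50 after the annotated start, in RefSeq on the GRCh38.p14 build, and capitals mark CG dinucleotides, the sites of DNA methylation. That of SLC25A24 lies on the minus strand at chr1:108200294-108200593, that of EEIG2 on the plus strand at chr1:108559850-108560149.
SLC25A24: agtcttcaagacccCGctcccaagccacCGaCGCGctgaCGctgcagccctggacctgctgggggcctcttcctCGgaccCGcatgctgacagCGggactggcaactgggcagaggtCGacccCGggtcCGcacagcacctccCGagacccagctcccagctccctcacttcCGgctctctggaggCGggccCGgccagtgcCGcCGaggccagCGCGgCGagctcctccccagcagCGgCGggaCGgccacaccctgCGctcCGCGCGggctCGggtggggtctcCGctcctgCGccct
EEIG2: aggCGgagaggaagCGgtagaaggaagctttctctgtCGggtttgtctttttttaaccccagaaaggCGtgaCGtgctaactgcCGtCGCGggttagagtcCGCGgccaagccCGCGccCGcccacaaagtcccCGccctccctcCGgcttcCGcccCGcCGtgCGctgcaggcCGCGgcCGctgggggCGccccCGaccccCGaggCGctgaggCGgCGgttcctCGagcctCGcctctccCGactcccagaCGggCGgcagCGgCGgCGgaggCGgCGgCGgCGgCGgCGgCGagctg
The SLC25A24 window held 30 CG dinucleotides and was 73.7% G or C, and the EEIG2 window held 43 and was 73.0% G or C. Over 35116 promoter windows of this length the median was 14 CG dinucleotides, 22.4% of the windows had 30 or more and 4.98% had 43 or more. An additional annotated start of SLC25A24 had 15. Of the 10 genes, 9 had a window in the table, with 12 windows among them. HENMT1, whose values were low in every clone, had 44 CG dinucleotides at 1 start and 27 at the other. STXBP3 and GPSM2 had 27 each, CLCC1 26 and PRPF38B 18. The only VAV3 window held 1, and AKNAD1 had 1 and 4 at its annotated starts. Any other start of VAV3 was not looked at. Windows above the median in CG were thus found at genes with and without a called fall. The element TCCCCTTN, which covers a DDB2 site described in NFKBIA, was searched on both strands. It was in 0 of the 12 windows, against 7.55% of all windows, which says only that these letters are not in these windows. The study places a similar element of NEDD4L further upstream of the start than these windows reach. A site at that distance from the genes described here was not searched for.

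Values are on the log2 scale, on which a difference of 1 is a 2-fold change, and a probe set counted as above the filter where at least 2 arrays gave more than 4.48, the median of all values. DDB2 itself had values of 7.84 and 7.25 in vector clones 1 and 3 and of 9.87, 9.0 and 9.14 in DDB2 clones 1, 2 and 3. Every clone transfected with DDB2 was thus above both vector clones, by 1.79 on average (standard error 0.34). Array medians lay between 4.46 and 4.51. Of 8 markers of ovarian cancer epithelium, 6 were above the filter level on every array, CDH1 was below it on every array and WT1 on all but 1. Their values summed to 46.1 to 47.1 in the vector clones and to 43.3 to 45.5 in the DDB2 clones, and EPCAM, an epithelial adhesion protein, was the marker called lower (log2 fold change -1.14), with values of 7.26 and 5.86 in the vector clones and from 5.29 to 5.53 in the DDB2 clones. The call of EPCAM was lost without vector clone 1 (-0.44) and without any 1 of the DDB2 clones (-1.20 to -1.08). The sums of 4 fibroblast markers were 16.3 to 18.1 and 15.2 to 21.1. The highest was in DDB2 clone 1, where DCN had a value of 6.02 and LUM of 4.73. The other markers of the list did not rise there. COL1A1 was 5.80 in that clone, between the vector clones (5.76 and 5.85), and PDGFRB was 4.52, its lowest value. DDB2 clone 1 was also the DDB2 clone with the smallest falls of SLC25A24 and EEIG2. The sums of 5 leukocyte markers were 20.6 to 21.3 and 20.1 to 21.5. PTPRC, CD3E and LYZ were below the filter level on every array. CD68 (6.12 to 7.33) and CD79A (4.96 to 5.11) were above it on every array. The sums of 4 endothelial markers were 15.2 to 15.8 and 14.9 to 15.0. PECAM1 and KDR were below the level throughout, while VWF (4.55 to 4.67) was above it on every array and CDH5 on 2. The part of these marker differences in the values below was not tested.

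EEIG2 had log2 values of 6.07 and 6.62 in vector clones 1 and 3 and of 5.04, 3.75 and 3.79 in DDB2 clones 1, 2 and 3. The groups did not overlap, with a gap of 1.03 between the lowest vector clone and the highest DDB2 clone, and DDB2 clones 2 and 3 lay well under DDB2 clone 1. The means were 6.34 ± 0.39 (SD, n = 2) and 4.19 ± 0.73 (SD, n = 3), which put the log2 fold change at -2.15 (standard error 0.47, 95% confidence interval -3.39 to -0.91), or 4.43-fold lower. Set against the mean of the vector clones, the difference was -1.30 in DDB2 clone 1, -2.59 in DDB2 clone 2 and -2.55 in DDB2 clone 3. In DDB2 clones 2 and 3 the value was under the filter level. Array signals flatten out toward background, whose level was not measured here, so the fold in these clones may be understated. In bulk RNA of a clone, a lower level in every cell and fewer cells that express the gene cannot be told apart.

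SLC25A24 had log2 values of 5.13 and 6.10 in the vector clones, against 4.72, 3.73 and 3.99 in the DDB2 clones. The groups did not overlap here either, but the gap was 0.41, smaller than the difference of 0.97 between the vector clones themselves. The means were 5.61 ± 0.68 (SD, n = 2) and 4.14 ± 0.51 (SD, n = 3), which put the log2 fold change at -1.47 (standard error 0.43, 95% confidence interval -2.58 to -0.35), or 2.77-fold lower. The differences from the vector mean were -0.90, -1.88 and -1.63 in DDB2 clones 1, 2 and 3. As with EEIG2, DDB2 clones 2 and 3 were under the filter level. A pair of pseudogene copies of SLC25A24, SLC25A24P1 and SLC25A24P2, are annotated between the 2 genes, and how far their sequence could add to the SLC25A24 signal was not tested.

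A gene was called at the thresholds of the study, a change of over 2-fold with an unadjusted P under 0.05 in limma. By this rule 2 of the 7 measured genes above the filter were called lower, EEIG2 and SLC25A24, the 2 on which the region was chosen, beside 0.195% of all genes above the filter. None of the other 5 was called in either direction, and 0.169% of all genes were called higher. EEIG2 had the 11th largest fall and SLC25A24 the 31st largest among the 15396 genes. After Benjamini-Hochberg adjustment no gene of the region passed, with an adjusted p of 0.999 in limma for each of the 7. On the whole array 0 probe sets passed. In limma 1097 of the 34141 probe sets kept had an unadjusted P under 0.05, which is a share of less than 0.05. The call of SLC25A24 was lost without vector clone 3 (log2 fold change -0.98), without DDB2 clone 2 (-1.26) and without DDB2 clone 3 (-1.39). EEIG2 was called without any of the 5 clones, with log2 fold changes from -2.57 to -1.87.

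**Figure D1:**
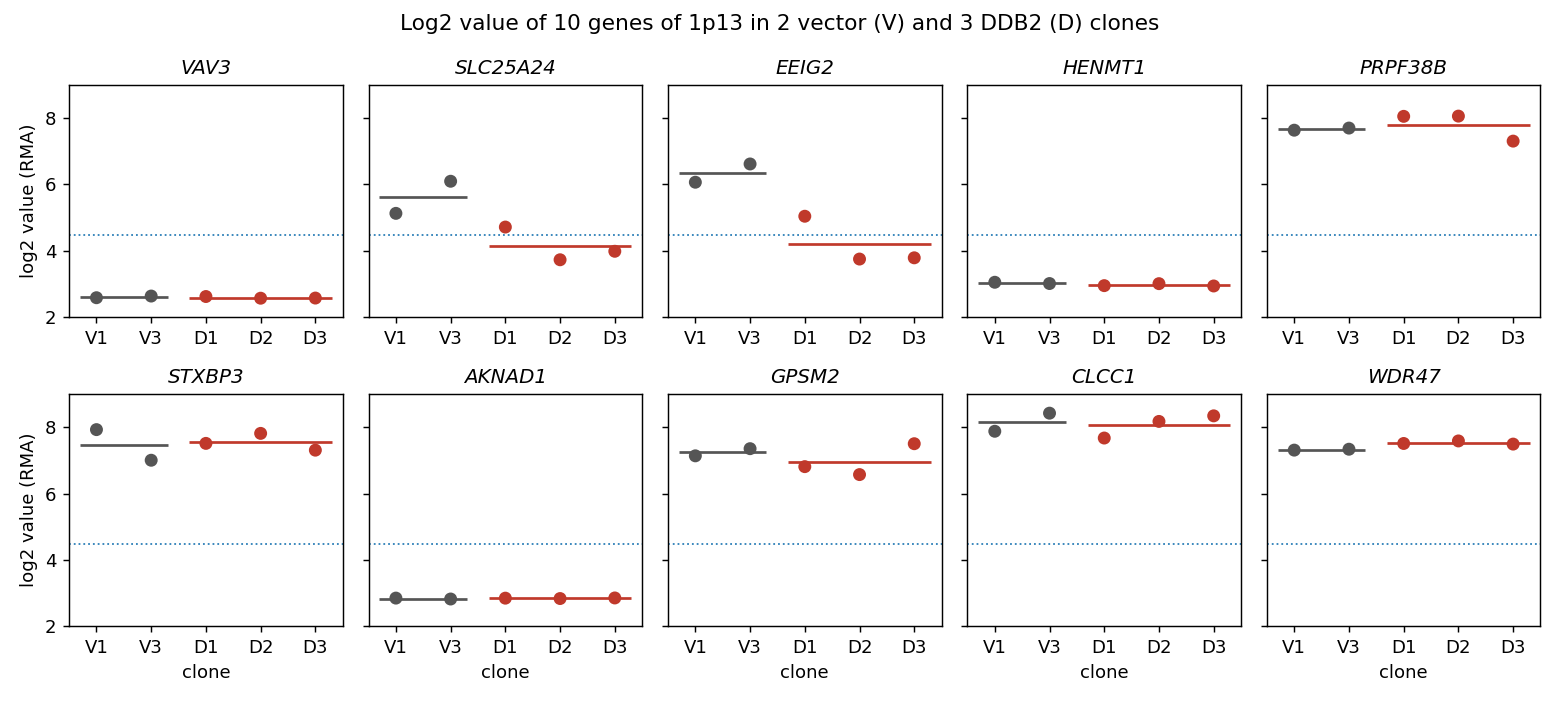
Log2 values (vertical axis) of the 10 genes, in their order along the chromosome, in vector clones (V1 and V3, grey) and DDB2 clones (D1 to D3, red). Each point is the array of a single clone, horizontal lines are group means and the dotted line is the filter level of 4.48; SLC25A24 and EEIG2 fall across that level, while the other 8 genes stay on one side of it.

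The 2 genes shared their order over the clones. For both, vector clone 3 had the highest value, followed by vector clone 1, DDB2 clone 1, DDB2 clone 3 and DDB2 clone 2. The DDB2 clone with the highest value of DDB2, clone 1, thus had the smallest fall of both genes. The correlation between SLC25A24 and EEIG2 over the 5 arrays was 0.972, which is given as a description, since both were chosen for lower values in the DDB2 clones. Among 2305 genes whose values spanned at least 1 on the log2 scale, SLC25A24 was the 5th most like EEIG2, and EEIG2 the 7th most like SLC25A24. These ranks rest on the same choice of the 2 genes and are a description as well. The genes most like EEIG2 were LRP1B (r = 0.988), RNU5A-8P (0.982), PEG10 (0.976) and POPDC3 (0.976), and those most like SLC25A24 were ADCY1 (0.991), RNU5A-8P (0.991), DUSP6 (0.989), CYP26A1 (0.986) and KLHL5 (0.984). Apart from RNU5A-8P, which is on chromosome 1, these genes lie on other chromosomes. LRP1B, a receptor of the low-density lipoprotein receptor family, had values of 5.73 and 6.62 in the vector clones, against 3.95, 2.90 and 2.86 in the DDB2 clones. DUSP6, a phosphatase that acts on ERK kinases, had 5.93 and 8.89 in the vector clones, against 5.66, 3.45 and 3.65 in the DDB2 clones. In both genes, as in EEIG2 and SLC25A24, DDB2 clones 2 and 3 had the lowest values. Both were called lower, and the call of DUSP6 was lost without vector clone 3 (-1.68), without DDB2 clone 2 (-2.76) and without DDB2 clone 3 (-2.86).

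On the side of EEIG2, the nearest genes were HENMT1 and PRPF38B. HENMT1, a methyltransferase that modifies the ends of piRNAs in germ cells, had log2 values of 3.05 and 3.01 in the vector clones, against 2.95, 3.01 and 2.94 in the DDB2 clones. All 5 values were under the filter level, so a fall could not be measured there. PRPF38B, a protein related to a pre-mRNA splicing factor, had values of 7.64 and 7.70 in the vector clones, against 8.05, 8.06 and 7.31 in the DDB2 clones. DDB2 clones 1 and 2 were above both vector clones and DDB2 clone 3 was below both. The log2 fold change of PRPF38B was 0.14 (standard error 0.27, 95% confidence interval -0.57 to 0.85; limma adjusted p = 0.999), an interval that does not reach a fall of 2-fold.

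STXBP3, a Munc18 protein that binds syntaxins in the docking of vesicles, had log2 values of 7.93 and 7.0 in the vector clones, against 7.51, 7.81 and 7.31 in the DDB2 clones. All 3 DDB2 clones lay between the vector clones, which differed from each other by 0.92. Its log2 fold change was 0.08 (standard error 0.32, 95% confidence interval -0.77 to 0.93; limma adjusted p = 0.999). AKNAD1 had values of 2.85 and 2.82 in the vector clones, against 2.85, 2.83 and 2.85 in the DDB2 clones, under the filter level on all arrays.

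GPSM2 links NUMA1 to G proteins at the cell cortex when the spindle is oriented. It had log2 values of 7.14 and 7.35 in the vector clones, against 6.81, 6.57 and 7.50 in the DDB2 clones. DDB2 clones 1 and 2 were the lowest and DDB2 clone 3 the highest, so the groups overlapped. The log2 fold change was -0.28 (standard error 0.31, 95% confidence interval -1.08 to 0.52; limma adjusted p = 0.999), and this interval reaches a fall of 2-fold. CLCC1, a chloride channel protein of the endoplasmic reticulum whose annotation overlaps that of GPSM2, had values of 7.88 and 8.42 in the vector clones, against 7.67, 8.17 and 8.34 in the DDB2 clones. Its highest value was in vector clone 3 and its lowest in DDB2 clone 1. The log2 fold change was -0.09 (standard error 0.28, 95% confidence interval -0.81 to 0.63; limma adjusted p = 0.999).

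WDR47, a WD40-repeat protein known in mouse for a part in neuronal microtubules, had log2 values of 7.31 and 7.33 in the vector clones, against 7.51, 7.58 and 7.49 in the DDB2 clones. All 3 DDB2 clones were above both vector clones, with a gap of 0.15, a pattern that 5.93% of all genes above the filter had. The log2 fold change was 0.21 (standard error 0.09, 95% confidence interval -0.02 to 0.43; limma adjusted p = 0.999). The log2 fold change of WDR47 was thus opposite in sign to those of EEIG2 and SLC25A24. It was under the threshold of the call, and its interval takes in no change. On the other side of SLC25A24, VAV3, a guanine nucleotide exchange factor, had values of 2.59 and 2.64 in the vector clones, against 2.62, 2.57 and 2.58 in the DDB2 clones, all under the filter level.

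**Figure D2:**
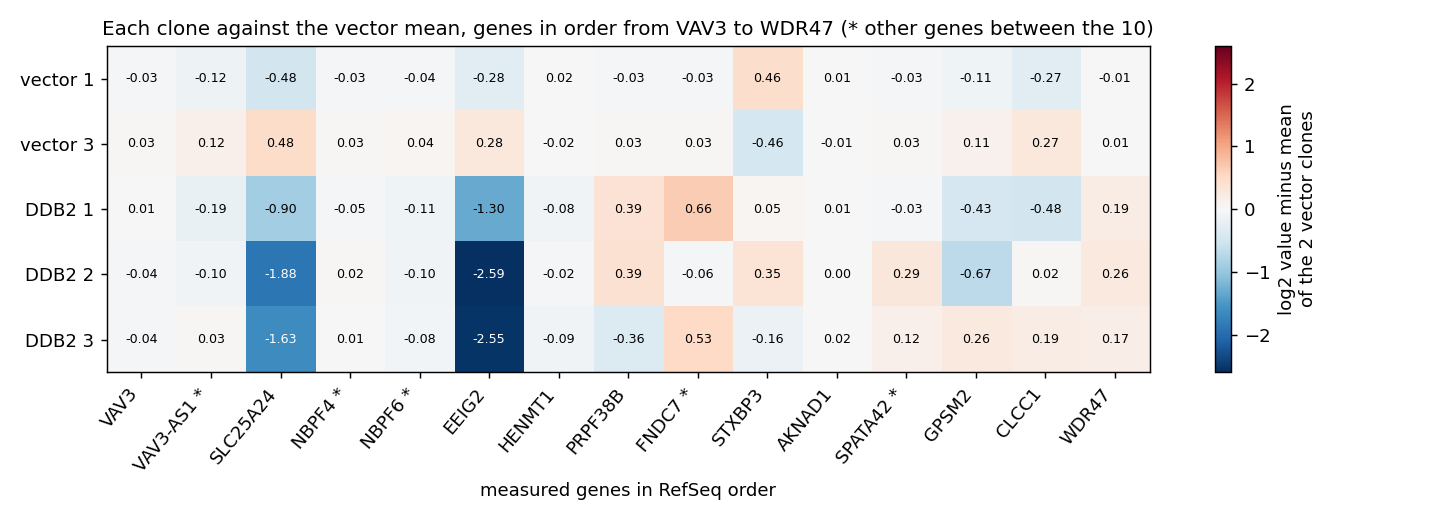
Difference in log2 value between each clone and the mean of the 2 vector clones, for every measured gene from VAV3 to WDR47 in chromosomal order; colour and number give the difference, and an asterisk marks a gene outside the 10. The columns of SLC25A24 and EEIG2 are below 0 in all 3 DDB2 clones, down to -2.59, and those of the other genes lie between -0.67 and 0.66 there.

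Over the 5 neighbours above the filter the median log2 fold change was 0.08, beside -0.02 over all 15396 genes above it, as a description of those that passed. Their median difference from the vector mean was 0.05, 0.26 and 0.17 in DDB2 clones 1, 2 and 3. Over all 8 neighbours the median was -0.0057, beside -0.02 over all 22465 genes measured, but this value lies midway between VAV3 and AKNAD1, which were under the filter level on every array and could not show a fall. Having all DDB2 clones below both vector clones was true of 12.5% of the genes above the filter and of 0 of the 5 neighbours above it. Of the 3 neighbours under the filter, HENMT1 had this order, by a gap of 0.0037. The 5 neighbours above the filter lie on the EEIG2 side. On the SLC25A24 side only VAV3 stands next in the list, and because its signal was low, the end of the fall on that side was not measured by it.

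The neighbours above the filter varied in another way. STXBP3 was lower in vector clone 3 than in vector clone 1, and lowest among the DDB2 clones in clone 3, and PRPF38B was lowest in DDB2 clone 3. GPSM2 and CLCC1 had the reverse order, with the clones titled 3 highest in their groups. Correlations with EEIG2 over the 5 arrays were -0.02 for PRPF38B, -0.26 for STXBP3, 0.31 for GPSM2, -0.07 for CLCC1 and -0.89 for WDR47, the last of these over a range of values of less than 0.3. Of the genes under the filter, VAV3 had a correlation of 0.73, HENMT1 of 0.56 and AKNAD1 of -0.46, over differences between clones that are small against those of EEIG2.

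RefSeq lists 26 genes from VAV3 to WDR47, the 10 described and 16 more. Of the 16, 5 had a probe set of their own and none of these passed the filter. NBPF4 had values from 4.37 to 4.45 and NBPF6 from 3.89 to 4.04, and both lie between SLC25A24 and EEIG2. NBPF genes form a family of near-identical copies, so their signals cannot be assigned with certainty. VAV3-AS1, which overlaps VAV3, had values from 2.74 to 3.05. FNDC7 had 3.31 and 3.36 in the vector clones, against 3.99, 3.27 and 3.86 in the DDB2 clones, and SPATA42 had values from 2.02 to 2.34. The remaining 11, MIR7852, TRUND-NNN8-1, LINC02785, SLC25A24P1, NBPF5P, SLC25A24P2, ST13P21, RPL7L1P21, LOC105378890, NANPP1 and LOC105378891, were not analysed here. SLC25A24 and EEIG2 were therefore adjacent in the order of the genes above the filter. Of 15203 such adjacent pairs in the genome, 3 had both genes called, all 3 in the same direction. The other two were PIK3C3 with EPG5 on chromosome 18 and PABPC5 with NAP1L3 on the X chromosome, both higher. The region was chosen for the falls of this pair, so its place among adjacent pairs restates that choice.

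The search was widened to the 20 nearest genes above the filter on each side. After WDR47, none of 20 was called, with a median log2 fold change of -0.07 and a range from -0.33 for ELAPOR1 to 0.31 for SARS1. TAF13, a subunit of the general transcription factor TFIID and the first gene beyond WDR47, had values of 7.59 and 6.78 in the vector clones, against 8.03, 7.76 and 6.54 in the DDB2 clones. TMEM167B, the next, had 7.47 and 6.38 in the vector clones, against 7.55, 7.35 and 6.31 in the DDB2 clones, and SCARNA2, a small Cajal body RNA, 7.04, 7.19, 7.24, 6.87 and 6.96 in the same order. In TAF13 and TMEM167B the clones titled 3 were the lowest of both groups, as in STXBP3. SARS1, the seryl-tRNA synthetase, named for its spread after its values were seen, had 9.94 and 8.01 in the vector clones, against 10.05, 10.08 and 7.73 in the DDB2 clones. These differences between clones cross the groups.

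Before VAV3, 2 of 20 genes were called higher and none lower, with a median of 0.14, beside 0.169% of all genes called higher. DPYD, the enzyme that breaks down uracil and thymine, was the 17th gene from VAV3 and had values of 5.83 and 4.16 in the vector clones, against 6.65, 6.80 and 7.24 in the DDB2 clones. Its log2 fold change was 1.90 (standard error 0.53; limma adjusted p = 0.999). SNX7, a sorting nexin and the 15th gene, had 7.27 and 5.33 in the vector clones, against 8.05, 7.79 and 8.22 in the DDB2 clones, and its log2 fold change was 1.72 (standard error 0.60). In both genes all DDB2 clones were above both vector clones, opposite in direction to EEIG2, and vector clone 3 was the lowest. Without vector clone 3 the log2 fold change was 1.07 for DPYD and 0.75 for SNX7, the latter no longer called. The call of DPYD was also lost without DDB2 clone 3 (1.73), and that of SNX7 without any 1 of the DDB2 clones (1.62 to 1.84). Nearest to VAV3, PRMT6, an arginine methyltransferase, had 5.81 and 6.27 in the vector clones, against 6.16, 5.96 and 6.43 in the DDB2 clones. The log2 fold changes of COL11A1, a fibrillar collagen chain, and S1PR1, a receptor of sphingosine 1-phosphate, were -0.62 and 0.76, and neither was called. Over the 1473 genes of chromosome 1 above the filter, 3 were called higher and 5 lower, beside 0.169% and 0.195% of all genes above the filter, and the median was -0.03. The 5 include EEIG2, which had the largest fall of the chromosome, and SLC25A24, the genes on which the region was chosen.

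**Figure D3:**
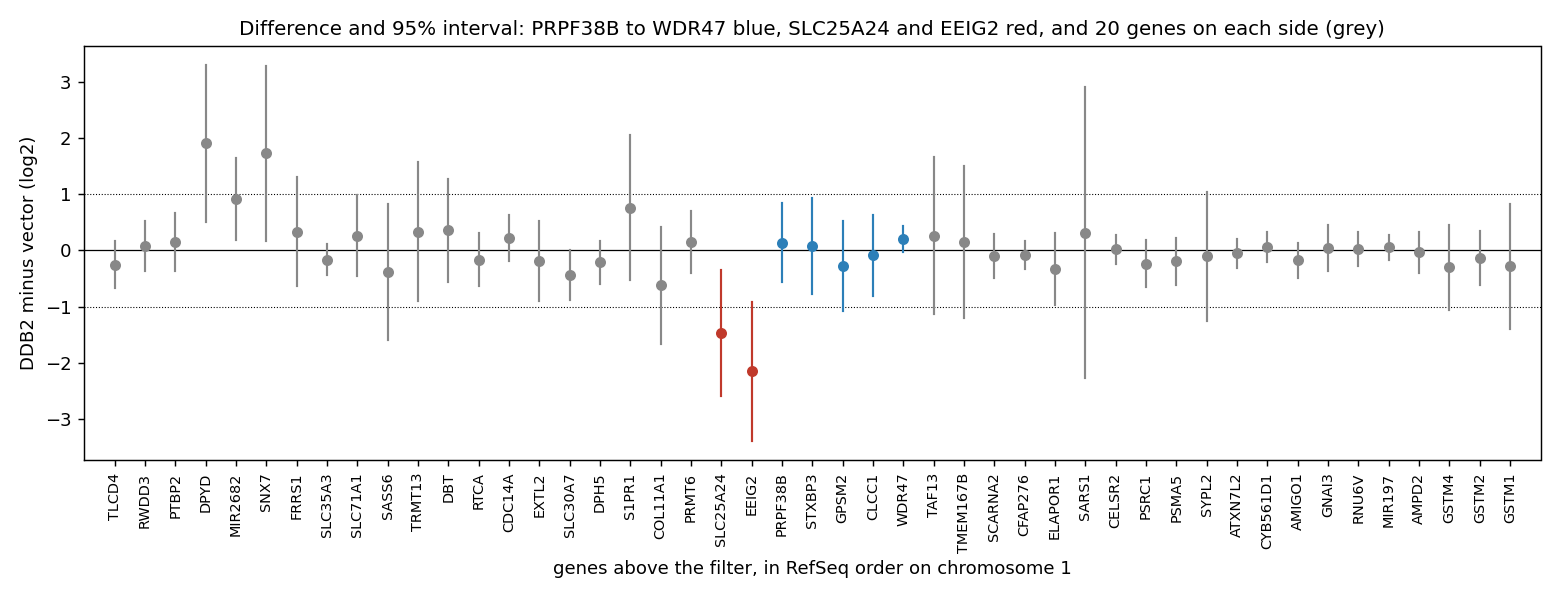
Log2 fold change of DDB2 over vector clones (vertical axis, points) with its 95% confidence interval (lines) for genes above the filter in chromosomal order. SLC25A24 and EEIG2 are red, the 5 neighbours from PRPF38B to WDR47 blue and 20 genes on each side grey, and dotted lines mark 2-fold changes; DPYD at 1.90 and SNX7 at 1.72 lie above them, and among these genes SLC25A24 and EEIG2 alone lie below.

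Genes related by family or function to the 10 were looked up as well. Of 11 mitochondrial carriers above the filter, none was called, with a median log2 fold change of -0.0031 and a range from -0.51 for SLC25A13, an aspartate-glutamate carrier, to 0.25 for SLC25A23. SLC25A23, SLC25A25 and SLC25A41 are the carriers of the same ATP-Mg and phosphate exchange as SLC25A24. SLC25A23 had values of 6.68 and 6.89 in the vector clones, against 6.89, 6.90 and 7.34 in the DDB2 clones, and the log2 fold changes of SLC25A25 and SLC25A41 were 0.10 and 0.01. The fall of SLC25A24 was therefore not accompanied by a called change of another carrier on this list.

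EEIG1, the paralog of EEIG2, had values of 7.09 and 6.86 in the vector clones, against 6.69, 7.35 and 7.08 in the DDB2 clones. The groups overlapped, with a log2 fold change of 0.07. The 8 measured paralogs, EEIG1 among them, ranged from -0.34 for VAV2 to 0.08 for STXBP2, with none called and a median of -0.04. Of 10 partners of GPSM2 in spindle orientation, none was called and the median was -0.03. DLG1, a scaffold of the cell cortex, had the lowest log2 fold change of them, -0.96, with values of 8.61 and 9.22 in the vector clones, against 9.12, 7.36 and 7.38 in the DDB2 clones, and NUMA1 the highest, 0.36. DDB2 clones 2 and 3 were low in DLG1, while DDB2 clone 1 lay between the vector clones.

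Of 8 syntaxins and SNARE proteins that work with Munc18 proteins, none was called, and log2 fold changes ran from 0.01 for VAMP2 to 0.25 for VAMP3, with 0.06 for STX4, the syntaxin that STXBP3 binds. Of 8 piRNA genes, 6 were measured and 2 passed the filter, PIWIL2 (log2 fold change 0.08) and TDRKH (0.35), neither of them called.

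**Figure D4:**
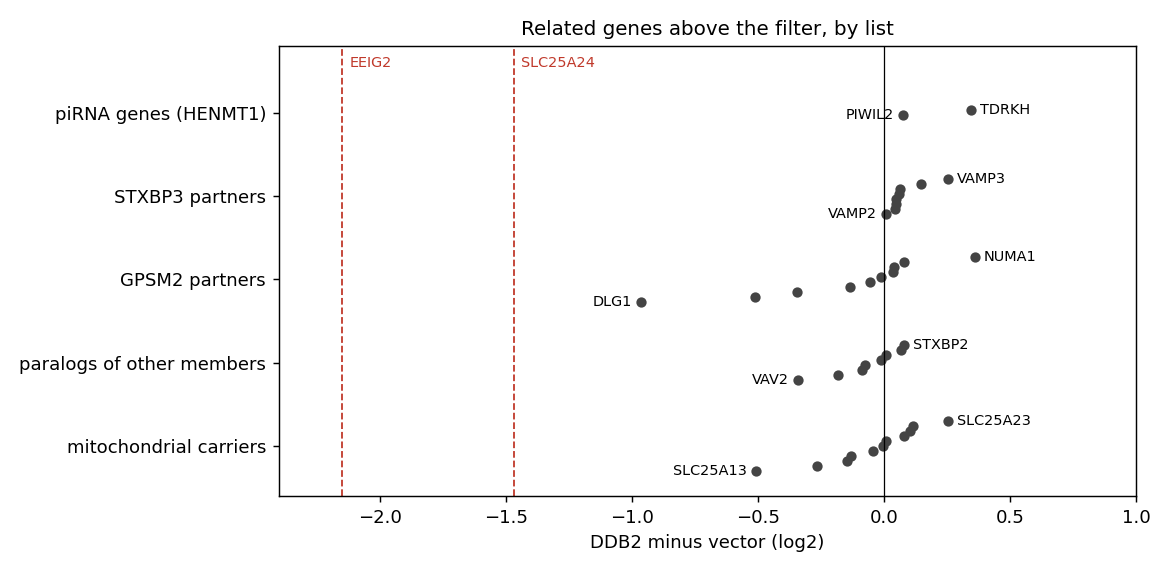
Log2 fold change of DDB2 over vector clones (horizontal axis) for the genes above the filter in 5 lists related to the 10 genes, with the lowest and highest gene of each list named. Each point is a gene, and dashed lines give EEIG2 at -2.15 and SLC25A24 at -1.47; every point lies to the right of both lines, DLG1 at -0.96 being the nearest.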

How the data were processed

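Gene expression was measured in 5 CP70 clones, with 1 array per clone. Groups were taken from the sample labels, and these leave unstated which DDB2 array belongs to which named clone of the study. According to the methods, the authors used the Affymetrix console for background correction, normalization and RMA summary of the probes. The deposited values were taken to be log2 values from their range, since the table names no unit. Genome build and software version were not given in the sources used here. Of 70523 entries, 2995 controls were left out. The filter kept 34141 of 67528 probe sets, those with at least 2 arrays above 4.48, the 50th percentile of all values. Symbols came from the annotation of the platform, in which 23781 probe sets carry 1 symbol, 1543 several and 42204 none; of the first, 21497 matched RefSeq by gene number, 1974 by symbol only and 310 not at all. Of the kept genes, 278 had several kept probe sets and were represented by the one with the highest mean. RefSeq gave the order of the genes, and its promoter table (GRCh38.p14) the sequences.

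DDB2 and vector clones were compared by the lmFit and eBayes functions of limma (version 3.58.1, R version 4.3.3, 1.72 prior degrees of freedom) over all kept probe sets, with Benjamini-Hochberg adjustment; the smallest adjusted p was 0.703. The code was tested on simulated data. P-values set the difference between groups against the spread between clones, which limma estimates in part from all kept probe sets. In an exact two-sided permutation test, 3 clones against 2 cannot go below 0.1. The number of arrays limits the precision. All 10 genes are named, and beyond them the genes between VAV3 and WDR47, the called and the nearest 3 genes on each side, the extremes of each list, and the 5 genes most like SLC25A24 and EEIG2 by Pearson correlation. A further list of related genes is not reported here. The region and the lists were chosen with earlier results of these data known. Alternatives were other filters (none, 25th and 75th percentile), quantile normalization, centring, an intensity trend, no variance shrinkage, replicate blocks, each clone left out (for the called genes outside the region chosen after seeing the data), other thresholds and averages over the probe sets of a gene. Plots were made in Python 3.11.15 with pandas 2.3.3 and matplotlib 3.10.9.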

Additional observations from a re-analysis of the deposited data

How the results depend on the processing

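Of the 10 genes, 2 were called lower. The count was 1, EEIG2 alone, without variance shrinkage and at P under 0.01, and 0 when the filter was raised to the 75th percentile, where neither gene is kept; with single clones left out it ran from 1 to 2. EEIG2 was called in 16 of 16 alternatives that kept it, with log2 fold changes from -2.57 to -1.87, and SLC25A24 in 9 of 16, from -1.95 without vector clone 1 to -0.98 without vector clone 3. No neighbour was called in any alternative. With single clones left out, the median of the 8 neighbours ran from -0.034 (without DDB2 clone 2) to 0.012, a range held narrow by the 3 genes under the filter, and that of the 5 above it ran from -0.055 (without DDB2 clone 2) to 0.20 (without DDB2 clone 3), an alternative chosen after seeing the data. Directions turned for STXBP3 without vector clone 3 (-0.38) and without DDB2 clone 2 (-0.055), and for CLCC1 without vector clone 3 (0.19) and without DDB2 clone 1 (0.11); the cause was not tested. Ranges over the alternatives were -0.38 to 0.54 for STXBP3, -0.36 to 0.19 for CLCC1, -0.55 to -0.09 for GPSM2, 0.01 to 0.39 for PRPF38B and 0.17 to 0.22 for WDR47. Over all genes, 56 were called (26 higher, 30 lower), against 34 (22 and 12) under the 75th percentile filter, 22 (6 and 16) without shrinkage, 163 (87 and 76) at a fold change over 1.5, 20 (5 and 15) at P under 0.01, and from 45 to 230 with single clones left out, the highest without vector clone 1.

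The numbers of the clones differ between titles and source names, and the labels do not say that a number marks a shared batch. Deviations from the group means correlated at 0.13 for the clones numbered 1 and at 0.34 for those titled 3. The value was -0.25 for vector clone 3 and DDB2 clone 2, which share a number in the source names. For vector clone 1 and DDB2 clone 2, which share no number, it was 0.25. With only 2 vector clones, a DDB2 clone has the same value with both but with opposite sign, so these are not independent. With a replicate block by the titles, 1 of the 10 genes was called (EEIG2), the median of the neighbours was -0.034, SLC25A24 was at -1.26 and STXBP3 turned to -0.055. With a replicate block by the source names, 1 was called (EEIG2), SLC25A24 was at -1.39, and 91 genes were called in all (46 higher, 45 lower). Where 1 vector clone was left out, the remaining one was taken to vary like the DDB2 clones. Each block sets the DDB2 clone without a partner aside.

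With 5 arrays, intervals of the neighbours are wide. With all clones, those of PRPF38B, STXBP3, CLCC1 and WDR47 do not reach a fall of 2-fold and that of GPSM2 does, but under 15 alternatives the interval reached it in 5 for STXBP3, 4 for CLCC1 and 12 for GPSM2, and in 0 for PRPF38B and WDR47. VAV3, HENMT1 and AKNAD1 were under the filter level on every array and say nothing about a fall. Values of SLC25A24 and EEIG2 in DDB2 clones 2 and 3, from 3.73 to 3.99, were under that level too. They were above every value of VAV3, HENMT1 and AKNAD1, and how near they were to background was not tested.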
